A study of Mus musculus with 24 samples.

Results

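Liver gene expression was compared directly between the 2 cholesterol diets of a mouse feeding study: 2% cholesterol with cholic acid (Chol_CA, 4 libraries) and 2% cholesterol with high sucrose (HS_Chol, 3 libraries). All animals were wild-type C57BL/6 mice aged 8 to 10 weeks at the start, kept on their diet for 8 weeks, and RNA came from a piece of whole liver. The labels give no sex and do not describe the base feeds, so cholic acid, sucrose and any other difference between the feeds cannot be told apart here. Of 34436 gene symbols in the count table, 12595 passed the low-count filter and 12110 of these were kept for the comparison. Normal chow (NC, 4 libraries), high sucrose alone (HS, 5 libraries) and cholic acid alone (CA, 4 libraries) served as background levels and shared the estimate of the spread. One sample labelled HS also carries a chow label and could not be tied to a column of the table. The labels number the livers within a diet but do not state that they are separate animals, so each p-value measures the spread between these libraries.

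Cholic acid is a primary bile acid. Bile acids are made from cholesterol in hepatocytes, help absorb dietary fat and sterol in the gut, and return to the liver, where the nuclear receptor FXR senses them and represses their synthesis. Dietary cholesterol that reaches the liver is sensed by SREBP2, which drives sterol synthesis when sterol is scarce, and by LXR, which responds to oxidised sterols and drives sterol export. Sucrose supplies fructose and glucose, substrates and inducers of fatty acid synthesis. PPARα is the main regulator of fatty acid oxidation genes in hepatocytes. A diet with both cholesterol and cholic acid is a long-used way to produce liver inflammation and gallstones in mice.

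Library totals ran from 6110484 to 6709497 reads in HS_Chol and from 6750266 to 8886641 in Chol_CA. Reads on mitochondrial light-strand tRNA genes, which lie opposite the heavy-strand messages, numbered 673 to 900.2 for each 1000000 heavy-strand reads in HS_Chol and 13.3 to 83.4 in Chol_CA. In the NC, HS and CA libraries they numbered 8.95 to 63.3, so HS_Chol alone stood apart. Any difference in how its libraries were made cannot be told apart from its diet, also for the genes kept. Because of the opposite-strand reads 485 tested genes were set aside: 246 opposite a gene of at least 100 CPM, 235 whose symbol could not be placed, and 4 mitochondrial light-strand genes. The 4 light-strand genes were all called lower in Chol_CA, with a median log2 difference of -4.34, and of the 246 opposite genes 17 were higher and 60 lower. A second difference concerned transcript length: log2 CPM fell with length in Chol_CA_0 and Chol_CA_1 and increased with it in Chol_CA_2, Chol_CA_3 and the 3 HS_Chol libraries. Results were therefore also computed with the positive-trend libraries only, which leaves 2 Chol_CA and all 3 HS_Chol libraries. Alb, the serum albumin gene and the defining hepatocyte product, stood at 54291, 63712 and 62492 CPM in HS_Chol and 42464, 28798, 44143 and 47214 CPM in Chol_CA, so each library carried the liver label's main marker.

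Among the 12110 genes kept, 1264 were higher in Chol_CA (10.4%) and 714 lower (5.9%) by edgeR's quasi-likelihood test at a Benjamini-Hochberg adjusted p of 0.05. The median log2 difference over all kept genes was 0.01. Values below are normalized counts scaled to 1000000 reads (CPM), listed in library order 0 to 2 for HS_Chol and 0 to 3 for Chol_CA, and differences are log2 Chol_CA minus HS_Chol ± SE. Among called genes of at least 5 CPM in the higher diet whose libraries did not overlap, the highest differences belonged to the bile acid carrier gene Slc51b and the macrophage gene Gpnmb, and the lowest to Cfd and the fatty acid hydroxylase genes Cyp4a14 and Cyp4a10. With a required change beyond 2-fold, 232 genes were higher and 86 lower. With positive-trend libraries only, 880 of 11995 genes were higher (7.34%) and 993 lower (8.28%), so that higher genes made up 46.98% of calls in place of 63.9%. Of the 1264 higher genes 1205 were tested in that smaller set and 663 were called higher again. All 714 lower genes were tested there and 584 were called lower again. No called gene tested there changed sign. A term for the trend in the fit gave 1217 higher and 1037 lower (53.99% higher). The number higher fell to 643 without HS_Chol_2 and to 795 without HS_Chol_1.

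**Figure D1:**
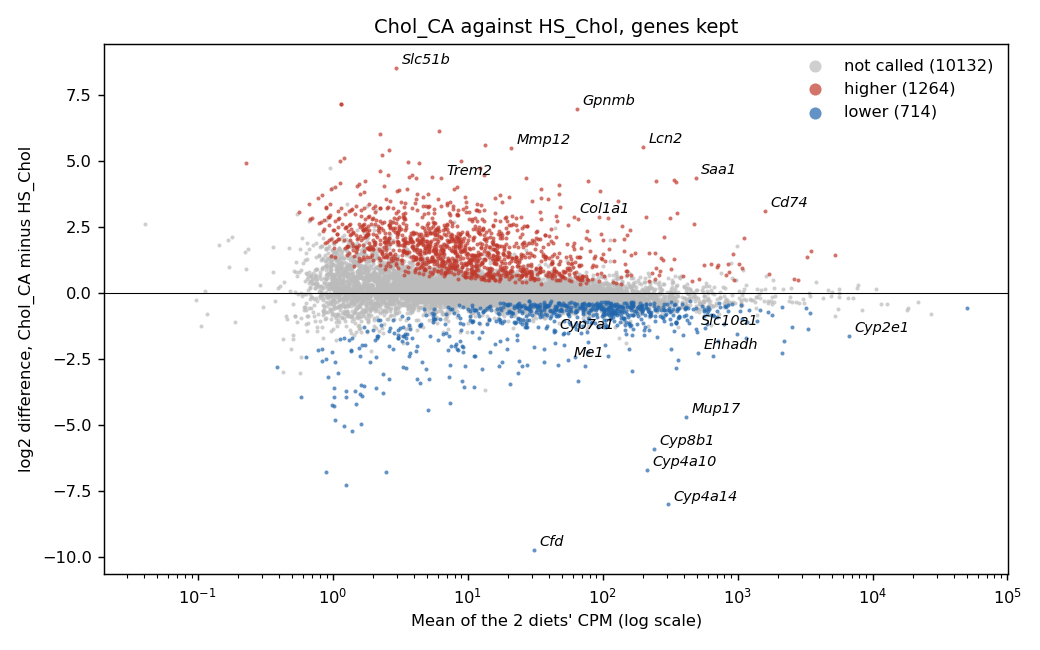
Each point is one of the 12110 kept genes; the x axis is the mean of the 2 diets' CPM on a log scale and the y axis the log2 difference, Chol_CA minus HS_Chol. The 1264 higher genes spread widely among genes of low and middle level, and the lower genes include abundant hepatocyte genes such as Cyp2e1.

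The enzyme that sets the proportion of cholic acid in the bile acid pool was lower in Chol_CA. Cyp8b1, the sterol 12α-hydroxylase (chr9:121914356-121916305, minus strand, GRCm38), measured 522, 416 and 484 CPM in HS_Chol and 9.67, 11.8, 4.40 and 5.52 CPM in Chol_CA. The 2 sets of libraries were far apart, with no overlap (log2 -5.92 ± 0.32, adjusted p = 6.85e-10). As background, NC stood at 621 ± 151, HS at 384 ± 55.7 and CA at 1.40 ± 0.603 CPM (SD, n = 4, 5 and 4), so the Chol_CA level lay nearer to CA than to the diets without cholic acid. Cyp7a1, the rate-limiting enzyme of the classical pathway, measured 50.3, 69.8 and 72.9 CPM in HS_Chol and 27.0, 22.5, 11.7 and 30.1 CPM in Chol_CA. It too was lower in every Chol_CA library (log2 -1.50 ± 0.40, adjusted p = 0.0134). That call was lost without HS_Chol_2 (adjusted p = 0.0539) and in the positive-trend libraries (log2 -1.64, adjusted p = 0.0559). In CA its mean was 0.487 ± 0.599 CPM and in HS 18.3 ± 10.7 CPM.

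Of 16 bile acid synthesis genes, 2 were higher and 6 lower in Chol_CA, with a median log2 difference of -0.42. The 2 higher were near the 10.4% of all genes, and the 6 lower stood against 5.9%. The lower members besides Cyp8b1 and Cyp7a1 were Cyp27a1, the first enzyme of the alternative pathway (log2 -0.69), the peroxisomal side-chain enzymes Hsd17b4 (-0.86) and Acox2 (-0.43), and the conjugating ligase Slc27a5 (-0.65). The higher members were Cyp39a1, an oxysterol 7α-hydroxylase, at 7.30 ± 3.22 CPM in HS_Chol and 20.8 ± 9.45 CPM in Chol_CA (SD, log2 1.51 ± 0.37, adjusted p = 0.00812), and Cyp2c70, which makes the muricholic acids of mice, at 636 ± 206 CPM in HS_Chol and 1098 ± 180.1 CPM in Chol_CA (log2 0.79 ± 0.22, adjusted p = 0.0187). Cyp7b1, the second hydroxylase of the alternative pathway, was not called: it measured 221, 111 and 448 CPM in HS_Chol and 151, 234, 168 and 226 CPM in Chol_CA (log2 -0.42 ± 0.45, adjusted p = 0.609), and its sign turned without HS_Chol_2. Without HS_Chol_2 the number lower was 4, and without HS_Chol_0 or HS_Chol_1 the number higher was 1.

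Among bile acid carriers and FXR genes, 2 of 16 were higher, near the 10.4% of all genes, and 5 lower, against 5.9% (median log2 -0.16). Slc51b, listed in the table as Ostb, encodes the β subunit of the basolateral bile acid exporter and is a textbook FXR target. It measured 0, 0 and 0 CPM in HS_Chol and 5.56, 7.34, 6.15 and 4.55 CPM in Chol_CA. No read was counted in any HS_Chol library, so the difference is a lower bound: at least 37.3-fold higher, against a floor of 3 reads over the 3 libraries together (adjusted p = 5.56e-06). Its mean was 16.9 ± 2.75 CPM in CA and 0.451 ± 0.185 in NC. The partner subunit gene (Osta in the table) was at 0 in all 7 libraries. Slc10a2, the apical sodium-dependent bile acid transporter of bile duct and gut, measured 4.15, 4.38 and 2.63 CPM in HS_Chol and 8.74, 4.70, 16.2 and 8.12 CPM in Chol_CA (log2 1.34 ± 0.45, adjusted p = 0.044).

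Of the 4 hepatocyte importers on the list, Slc10a1 and Slco1b2 were lower, while Slco1a1 (log2 -1.32 ± 0.69, adjusted p = 0.223) and Slco1a4 (log2 0.10 ± 0.47, adjusted p = 0.923) were not called. Slc10a1, the main sodium-dependent bile acid importer of hepatocytes, measured 590.0, 738 and 788 CPM in HS_Chol and 219.8, 155, 275 and 448 CPM in Chol_CA. All 4 Chol_CA libraries lay below the 3 HS_Chol libraries (log2 -1.36 ± 0.23, adjusted p = 0.000477). Lower as well were the organic anion importer Slco1b2 (log2 -0.69), the basolateral exporter Abcc3 (-0.95), Klb, the co-receptor for the gut hormone FGF15 (-1.31), and Nr1h4, which encodes FXR itself (-0.64). Nr0b2, the FXR-induced repressor SHP, was not called: it measured 86.2, 34.8 and 91.6 CPM in HS_Chol and 72.3, 71.2, 41.5 and 45.5 CPM in Chol_CA, with overlapping ranges (log2 -0.30 ± 0.27, adjusted p = 0.528). Abcb11, the canalicular bile salt export pump, measured 489, 641 and 721 CPM in HS_Chol and 641, 344, 830.4 and 1024 CPM in Chol_CA (log2 0.20 ± 0.31, adjusted p = 0.729). Its lowest value, in Chol_CA_1, came from the library with the steepest negative length trend, and in the positive-trend libraries it was higher (log2 0.57, adjusted p = 0.0266). Slc10a2 was not called without Chol_CA_0, Chol_CA_2 or any of the 3 HS_Chol libraries. The number of lower members was 1 without HS_Chol_2, 2 without HS_Chol_1 or Chol_CA_1 and 3 without Chol_CA_0.

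The 250 bases before the RefSeq start of Slc51b, the gene with the highest called difference, are shown because FXR binds inverted repeats of a short motif separated by 1 base. The exact repeat GGTCANTGACC, searched on both strands in 32851 RefSeq promoter windows of the same length (GRCm38.p6), occurred in 11 of them (0.0335%) and in none of the 15 listed carrier and FXR genes with a window. A looser form with the same first repeat, GGTCANTNANC, written after that search had been made, occurred in 149 windows (0.454%) and in 1 of the 15 genes, Slc51b. The match is in capitals and begins 186 bases before the start (position -186). The window lies at chr9:65422774-65423023 on the minus strand and is printed 5′ to 3′. The percentages count windows and the 15 are genes, so they are not like for like. The match describes letters and not a measured binding site.
Slc51b: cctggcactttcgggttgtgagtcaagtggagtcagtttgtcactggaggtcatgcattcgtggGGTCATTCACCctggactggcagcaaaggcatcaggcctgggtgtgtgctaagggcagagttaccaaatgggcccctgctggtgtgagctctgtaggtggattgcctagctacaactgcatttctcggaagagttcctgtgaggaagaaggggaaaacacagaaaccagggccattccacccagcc

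Genes of the sterol synthesis list were either lower in Chol_CA or not called. Of 23 members of the SREBP2 list, 8 were lower and none higher (median log2 -0.69), against 5.9% lower among all genes. Stard4, a cholesterol carrier protein gene, measured 67.2, 92.8 and 71.9 CPM in HS_Chol and 18.8, 13.4, 36.5 and 39.3 CPM in Chol_CA (log2 -1.51 ± 0.32, adjusted p = 0.00271). Tm7sf2, a sterol reductase, measured 36.6, 35.7 and 39.2 CPM in HS_Chol and 12.8, 13.6, 18.0 and 22.1 CPM in Chol_CA (log2 -1.16 ± 0.22, adjusted p = 0.00119). For both genes the highest Chol_CA library lay below the lowest HS_Chol library. Other lower members included Insig1, which retains SREBPs in the endoplasmic reticulum (log2 -1.29), and the synthesis enzymes Hmgcs1 (-0.99), Fdps (-1.04), Sc5d (-0.96) and Sc4mol (-0.88).

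Sqle, squalene epoxidase, was low on both cholesterol diets, at 3.03, 2.27 and 2.79 CPM in HS_Chol and 1.19, 0.917, 2.05 and 1.30 CPM in Chol_CA. Sqle was also low on cholic acid without cholesterol, at 4.08 ± 2.53 CPM in CA, against 67.7 ± 5.97 in NC and 47.2 ± 16.9 in HS (SD). Its difference was not called (log2 -0.95 ± 0.50, adjusted p = 0.219). The number of lower sterol synthesis genes was 4 without HS_Chol_0, 5 without Chol_CA_0, Chol_CA_1 or HS_Chol_1, and 13 without Chol_CA_3.

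LXR-related sterol genes did not move as a block: of 12 kept, 4 were higher and 1 lower (median log2 0.08). Of all genes 10.4% were higher and 5.9% lower, and the 1 lower is near that share. The sterol exporters Abcg5 and Abcg8 lie head to head on opposite strands and were set aside by the strand rule. Abcg5 measured 317, 299 and 244 CPM in HS_Chol and 315, 252, 299 and 398 CPM in Chol_CA and was not called (log2 0.14 ± 0.20, adjusted p = 0.704), nor was Abcg8 (adjusted p = 0.998). The mean of Abcg5 was 68.9 ± 8.35 CPM in NC, 92.7 ± 23.8 in HS and 208 ± 18.5 in CA. Abca1, which exports cholesterol to lipid-poor apolipoproteins, was not called at 274, 305 and 362 CPM in HS_Chol and 324, 215, 335 and 409.9 CPM in Chol_CA (log2 0.03 ± 0.25, adjusted p = 0.954). Lpl, lipoprotein lipase, measured 113, 138 and 132 CPM in HS_Chol and 463, 436, 306 and 225 CPM in Chol_CA. Its 4 Chol_CA libraries all lay above HS_Chol (log2 1.49 ± 0.24, adjusted p = 0.000374). The other higher members were Soat1, the cholesterol-esterifying enzyme of macrophages, at 4.72 ± 1.88 CPM in HS_Chol and 21.7 ± 8.94 CPM in Chol_CA (SD, log2 2.19), the sterol transporter Abcg1 (1.75) and the small GTPase Arl4c (1.94). These 4 genes are also expressed by macrophages, whose list had 19 of 20 genes higher in Chol_CA as given further on, and the part of those cells in the differences was not tested. Lpcat3, a phospholipid remodelling enzyme, was lower at 165 ± 26.9 CPM in HS_Chol and 96.1 ± 16.9 CPM in Chol_CA (log2 -0.78 ± 0.14, adjusted p = 0.00111), with Emg1 on the opposite strand at 32.6 CPM.

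Fatty acid synthesis genes were mostly lower on the cholic acid diet, where sucrose was absent from the label. Of 22, 13 were lower and 1 higher (median log2 -1.18), against 5.9% and 10.4% of all genes. Me1, malic enzyme, which supplies NADPH for lipid synthesis (chr9:86581371-86695953, minus strand, GRCm38), measured 82.9, 113 and 89.9 CPM in HS_Chol and 17.6, 13.4, 15.8 and 17.4 CPM in Chol_CA. The 4 Chol_CA values were close together and far below HS_Chol (log2 -2.57 ± 0.24, adjusted p = 8.97e-07). As background, NC stood at 162 ± 38.0, HS at 166 ± 53.7 and CA at 77.1 ± 13.0 CPM, so the HS_Chol mean lay between CA and the NC and HS means. Elovl5, a polyunsaturated fatty acid elongase, measured 1019, 1399 and 929 CPM in HS_Chol and 277, 171, 403 and 395 CPM in Chol_CA (log2 -1.84 ± 0.30, adjusted p = 0.000413). Acacb, the mitochondrial acetyl-CoA carboxylase (log2 -2.23), Aacs (-1.81), the desaturases Fads1 (-1.11) and Fads2 (-1.61), Elovl6 (-1.21) and the glucose-responsive factor Mlxipl (-0.92) were lower too. The single higher member was Scd2, a desaturase low in adult hepatocytes, at 13.6, 20.9 and 8.04 CPM in HS_Chol and 44.9, 41.3, 45.1 and 31.7 CPM in Chol_CA (log2 1.52 ± 0.29, adjusted p = 0.0014).

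The best known lipogenic enzymes split the Chol_CA libraries. Fasn, fatty acid synthase, measured 936, 973 and 744 CPM in HS_Chol and 137, 109, 377 and 888 CPM in Chol_CA. Chol_CA_3 lay inside the HS_Chol range and Chol_CA_0 and Chol_CA_1 at the bottom, so the difference was not called (log2 -1.23 ± 0.47, adjusted p = 0.0806). Without Chol_CA_3 it was called (adjusted p = 0.000558), as it was by DESeq2 (0.0411). Scd1, stearoyl-CoA desaturase, measured 29550.4, 46128 and 27546 CPM in HS_Chol and 12743, 7432, 28488 and 30622 CPM in Chol_CA and was not called (adjusted p = 0.15); without Chol_CA_3 it was (0.0369). Restricted to the positive-trend libraries, 10 of the 22 were lower and 1 higher, with a median of -0.65. The number lower ran from 9 without Chol_CA_0 or Chol_CA_1 to 17 without Chol_CA_3.

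Of 14 fructose and glucose genes, 3 were lower and 1 higher (median log2 -0.24), against 5.9% lower and 10.4% higher among all genes. Slc2a5, the fructose transporter GLUT5, measured 13.4, 14.7 and 10.7 CPM in HS_Chol and 4.50, 5.73, 7.33 and 5.20 CPM in Chol_CA (log2 -1.18 ± 0.24, adjusted p = 0.00221). No Chol_CA library reached the HS_Chol range. Fbp1 of gluconeogenesis was lower too (log2 -0.68), and G6pdx of the pentose phosphate pathway was higher (log2 1.37). Khk, ketohexokinase, which traps fructose in the hepatocyte, was not called at 342, 348 and 319 CPM in HS_Chol and 241, 326, 273 and 301 CPM in Chol_CA (log2 -0.24 ± 0.21, adjusted p = 0.515). G6pdx was not called without HS_Chol_2, and no member was higher in the positive-trend libraries.

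Fatty acid oxidation genes were lower with few exceptions. Of 31 genes, 28 were lower in Chol_CA and none higher (median log2 -1.25), against 5.9% and 10.4% of all genes. The remaining 3, Ppara, Pdk4 and Fgf21, were not called. Cyp4a14, a microsomal fatty acid ω-hydroxylase and sensitive PPARα target (chr4:115486200-115496142, minus strand, GRCm38), measured 549.7, 943 and 323 CPM in HS_Chol and 4.77, 1.83, 1.56 and 1.41 CPM in Chol_CA. Even the highest Chol_CA library, Chol_CA_0, was far under the lowest HS_Chol library (log2 -8.01 ± 0.86, adjusted p = 4.62e-06). Its level in the other diets varied widely: NC stood at 639.6 ± 363, HS at 45.8 ± 42.3 and CA at 908 ± 317 CPM. The paralog Cyp4a10, which can share reads with it, measured 426, 486 and 360.0 CPM in HS_Chol and 8.35, 4.01, 2.44 and 1.84 CPM in Chol_CA (log2 -6.70 ± 0.57, adjusted p = 3.35e-07).

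Ehhadh, the peroxisomal bifunctional enzyme, measured 735, 939 and 866 CPM in HS_Chol and 256, 109.6, 168 and 168 CPM in Chol_CA. The groups were separate (log2 -2.27 ± 0.21, adjusted p = 9.59e-07), and NC stood at 463 ± 72.5, HS at 301 ± 42.8 and CA at 788 ± 95.6 CPM, so Chol_CA lay under all of these and HS_Chol beside CA. Vnn1, a pantetheinase gene used as a PPARα reporter, stood at 119 ± 28.2 CPM in HS_Chol and 11.8 ± 3.70 CPM in Chol_CA (SD, log2 -3.34). The fatty acid binding protein gene Fabp1 (log2 -1.36), the carnitine shuttle genes Cpt1a (-0.89), Cpt2 (-1.01) and Slc25a20 (-1.12), and the acyl-CoA dehydrogenases Acadl (-0.87), Acadm (-0.84) and Acadvl (-0.65) were all lower. The count was 28 again in the positive-trend libraries (median -1.23), and leaving out any 1 of the 7 libraries gave 25 to 28. Acot3, an acyl-CoA thioesterase outside the list, measured 8.46, 17.1 and 3.61 CPM in HS_Chol and 1.59, 0.229, 0.0977 and 0 CPM in Chol_CA (log2 -4.46 ± 1.05, adjusted p = 0.00574).

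Lipid droplet genes went the same way, with 7 of 12 lower and none higher (median log2 -1.11), against 5.9% and 10.4% of all genes. G0s2, an inhibitor of triglyceride lipase, measured 245, 91.1 and 217 CPM in HS_Chol and 33.5, 59.3, 14.0 and 32.8 CPM in Chol_CA. Its nearest values were HS_Chol_1 and Chol_CA_1, and the groups did not overlap (log2 -2.41 ± 0.40, adjusted p = 0.000415). Fitm2, which partitions fat into droplets, measured 69.5, 82.1 and 76.5 CPM in HS_Chol and 24.6, 16.7, 28.9 and 32.8 CPM in Chol_CA (log2 -1.56 ± 0.23, adjusted p = 0.000173). Fitm1 (log2 -2.77), the droplet coat genes Plin4 (-2.16) and Plin2 (-0.65), and Mogat1, at 1.10 ± 0.472 CPM in HS_Chol and 0.0531 ± 0.0617 CPM in Chol_CA, were lower as well. Cidec, which fuses droplets, measured 18.8, 28.3 and 4.92 CPM in HS_Chol and 1.59, 1.15, 2.15 and 0.866 CPM in Chol_CA (log2 -3.57 ± 0.67, adjusted p = 0.00114), and the call was missed in the positive-trend libraries (adjusted p = 0.0546).

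Cfd, which encodes the complement protease adipsin and is best known from fat tissue (chr10:79890853-79892655, plus strand, GRCm38), had the lowest called difference. It measured 110.2, 73.0 and 2.79 CPM in HS_Chol and 0, 0.229, 0 and 0 CPM in Chol_CA. HS_Chol_0 and HS_Chol_1 were high and HS_Chol_2 was nearer to zero, but still above every Chol_CA library. As background, NC stood at 1.17 ± 1.79, HS at 0.0557 ± 0.0763 and CA at 0 ± 0 CPM (SD). Chol_CA thus lay near the level of these diets, and HS_Chol_0 and HS_Chol_1 stood far above it. The highest NC library, at 3.83 CPM, was above HS_Chol_2. With 2 reads in Chol_CA in total, the ratio was 1121-fold (95% counting interval 309.7 to 9268, adjusted p = 9.63e-05), and in the positive-trend libraries the adjusted p was 0.0599. Adipose markers were read beside it: of 5, none passed the count filter, and their summed level was 2.24, 6.80 and 0.328 CPM in HS_Chol and 0.132, 0.229, 0 and 0 CPM in Chol_CA. Adipoq and Plin1, which define adipocytes, were at 2.57 and 2.12 CPM in HS_Chol_1 and at 0 in the other 6 libraries. Retn and Adig were each at 0.302 CPM in HS_Chol_1 and at 0 elsewhere. Cidea, of the same list, measured 2.24, 1.51 and 0.328 CPM in HS_Chol and 0.132, 0.229, 0 and 0 CPM in Chol_CA. The part of adipose tissue in the Cfd values was not tested.

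**Figure D2:**
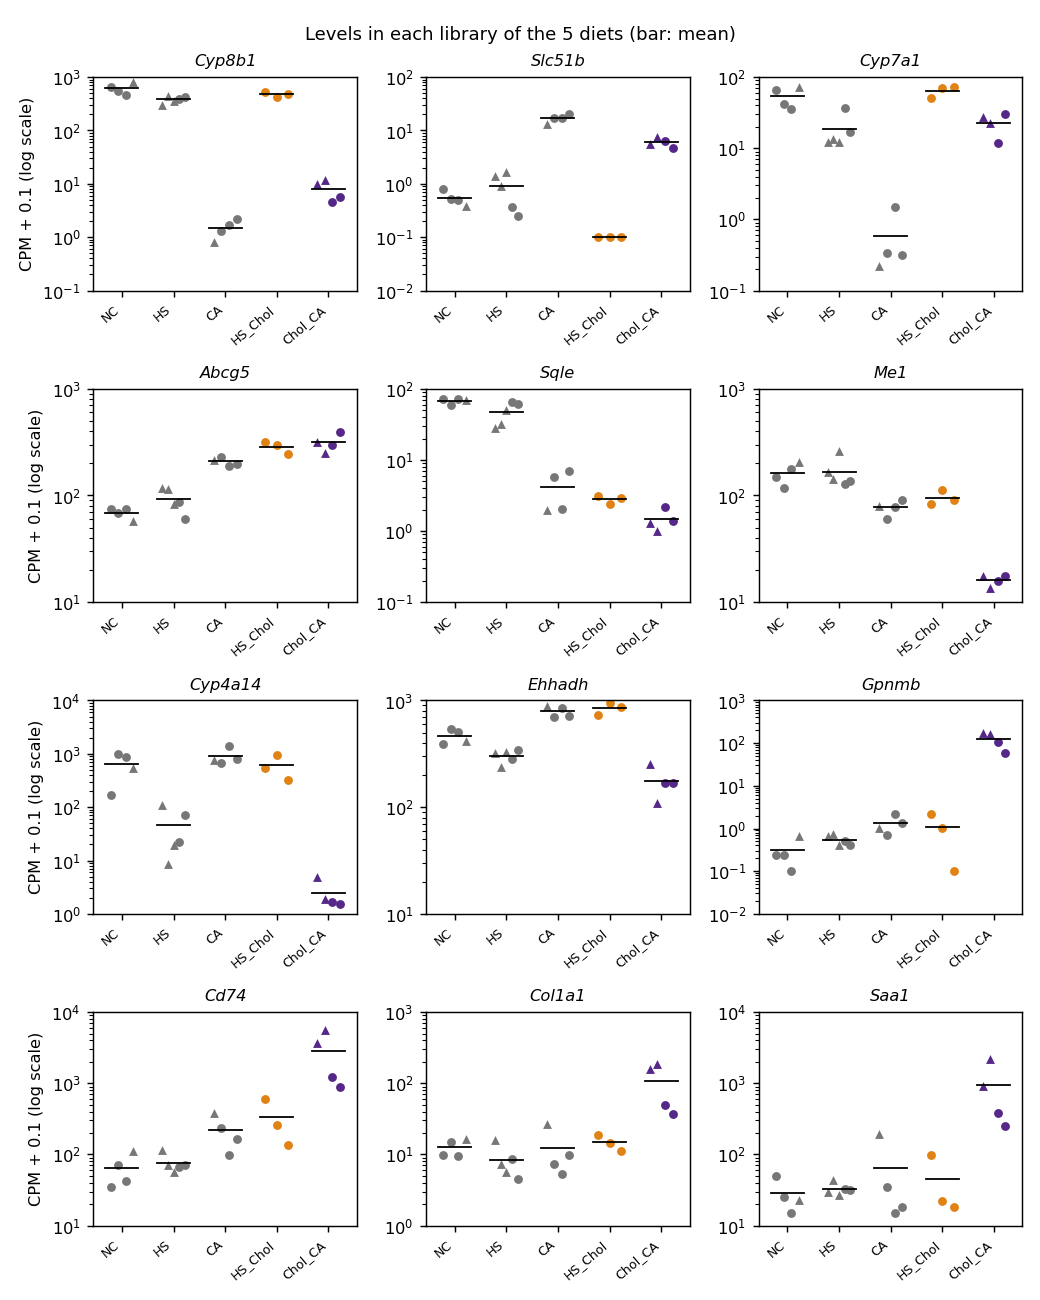
CPM + 0.1 on a log scale for 12 genes in each library of the 5 diets; circles are libraries with a positive length trend, triangles those with a negative trend, and bars are means. Cyp8b1, Me1, Cyp4a14 and Ehhadh separate Chol_CA (purple) from HS_Chol (orange) downward, Slc51b, Gpnmb, Cd74, Col1a1 and Saa1 separate them upward, and Abcg5 overlaps.

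Other hepatocyte programs were partly lower. Of 20 drug metabolism genes of the CAR and PXR receptors, 7 were lower and none higher (median log2 -0.70), against 5.9% and 10.4% of all genes. Cyp2c29 measured 1672, 1540.0 and 1251 CPM in HS_Chol and 492, 401, 444 and 674 CPM in Chol_CA (log2 -1.56 ± 0.26, adjusted p = 0.00049), and in CA its mean was 5960.2 ± 2672 CPM. Cyp2b10, the classical CAR target, had 3 reads in each cholesterol diet in total, under or at the floor, against 160.2 ± 141 CPM in CA. Cyp2b9 likewise had 8 reads over Chol_CA and 2 over HS_Chol against 167 ± 118 CPM in CA. Among 18 pericentral genes, those of hepatocytes around the central vein, 3 were lower and none higher, beside 5.9% and 10.4% of all genes. The number lower was 5 without HS_Chol_1 or Chol_CA_3. Cyp2e1, an alcohol-oxidising enzyme of that zone, measured 9888, 10678 and 9946 CPM in HS_Chol and 3918, 2692, 2853 and 3696 CPM in Chol_CA (log2 -1.63 ± 0.16, adjusted p = 1.63e-06). Glul, glutamine synthetase, was not called at 1025, 954 and 925 CPM in HS_Chol and 684, 682, 678 and 824 CPM in Chol_CA (log2 -0.43 ± 0.16, adjusted p = 0.0761), but was by DESeq2 (0.0419), with the trend term (0.017) and without Chol_CA_3 (0.04). Of 16 periportal genes 4 were higher and none lower, with a median log2 difference of -0.02. Among all genes 10.4% were higher and 5.9% lower. The higher members included Ctsc (log2 1.44) and Cdh1 (1.32), while 12 were not called, among them Cps1, Ass1, Arg1, Otc and Cyp2f2. The number higher was only 1 without HS_Chol_0 or HS_Chol_1, and 2 without HS_Chol_2, Chol_CA_0, Chol_CA_1 or Chol_CA_2.

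Of 18 hepatocyte identity genes 3 were lower and none higher, beside 5.9% and 10.4% of all genes. The lower ones included the transcription factor gene Cebpa (log2 -0.65 ± 0.12, adjusted p = 0.00131) and Alb (log2 -0.57 ± 0.17, adjusted p = 0.0251). Of 18 male-biased genes, 5 were lower and none higher, beside the same shares of all genes, and without HS_Chol_2 the number lower was 3. Of 9 tested female-biased genes 1 was lower, beside 5.9% of all genes. That gene, Cyp2c69, was called in only 1 of the 7 fits that leave out a library. Mup17, a major urinary protein gene, measured 685, 309 and 1419 CPM in HS_Chol and 10.3, 84.0, 6.64 and 21.9 CPM in Chol_CA (log2 -4.71 ± 0.86, adjusted p = 0.00101). Mup1 was lower too (log2 -4.17 ± 0.61, adjusted p = 0.000135), while Mup20, another gene of the cluster, stood at 376, 323 and 658 CPM in HS_Chol and 1391, 1739, 1558 and 1413 CPM in Chol_CA, without overlap, and was not called (log2 1.75 ± 0.67, adjusted p = 0.0831), except with the 2 diets alone (0.00627). Mup genes are near-identical copies, and how their reads were shared is uncertain. Of 19 lipoprotein genes 2 were lower, Mttp and Lcat, beside 5.9% lower among all genes. The number lower was 1 without HS_Chol_0, Chol_CA_2 or Chol_CA_3, and none was lower without Chol_CA_1, HS_Chol_1 or HS_Chol_2. In the positive-trend libraries 7 lipoprotein genes were lower and 1 higher, beside 8.28% and 7.34% of all genes there, and the trend term also gave 7 and 1.

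Glutathione and NRF2 genes, which respond to oxidants and electrophiles, were higher for 7 of 24 and lower for 1 (median log2 0.60). Of all genes 10.4% were higher and 5.9% lower, and the 1 lower is near that share. Gstm3 measured 43.9, 33.4 and 30.2 CPM in HS_Chol and 1296, 774, 475 and 109.9 CPM in Chol_CA. Chol_CA_3 was far below the other Chol_CA libraries yet above HS_Chol (log2 4.21 ± 0.65, adjusted p = 0.000201), and the CA mean was 4345 ± 2425 CPM. Hmox1, heme oxygenase, measured 51.7, 23.6 and 22.2 CPM in HS_Chol and 132, 167, 59.3 and 62.1 CPM in Chol_CA (log2 1.69 ± 0.37, adjusted p = 0.00369), and in the positive-trend libraries it was not called (log2 0.89, adjusted p = 0.066), nor with the 2 diets alone (0.0582). Slc7a11, the cystine importer, stood at 0.0532 ± 0.0922 CPM in HS_Chol and 4.43 ± 3.05 CPM in Chol_CA and Gpx2 at 0 ± 0 CPM in HS_Chol and 2.29 ± 2.92 CPM in Chol_CA. Among positive-trend libraries 2 were higher and 2 lower, with a median of 0.14. The count higher was 3 without HS_Chol_1 or HS_Chol_2, and 4 without Chol_CA_0 or Chol_CA_1.

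Macrophage genes were higher with 1 exception. Of 20 genes of monocytes and lipid-laden macrophages, 19 were higher in Chol_CA and none lower (median log2 3.28), against 10.4% higher among all genes. That share is no independent support, because the list was chosen with earlier results of these data known. Some members also entered the test through Chol_CA alone. Trem2 is such a gene, with means of 0.174 CPM in NC, 0.501 in HS and 0.864 in CA. Gpnmb, a transmembrane glycoprotein of lysosome-rich macrophages (chr6:49036546-49070929, plus strand, GRCm38), measured 2.08, 0.907 and 0 CPM in HS_Chol and 176, 165, 108 and 59.7 CPM in Chol_CA. Every Chol_CA library was more than an order of magnitude above every HS_Chol library (log2 6.97 ± 0.56, adjusted p = 1.91e-07). Its means were 0.212 ± 0.246 CPM in NC and 1.22 ± 0.634 in CA. Trem2, a lipid receptor of such macrophages, measured 0.479, 0.604 and 0.656 CPM in HS_Chol and 14.6, 21.3, 7.33 and 4.98 CPM in Chol_CA (log2 4.34 ± 0.66, adjusted p = 0.000195). Mmp12, macrophage elastase, measured 2.08, 0.151 and 0.492 CPM in HS_Chol and 61.3, 36.8, 47.0 and 19.3 CPM in Chol_CA (log2 5.49 ± 0.63, adjusted p = 8.33e-06). Both were separate between the diets in every library. Lyz2, macrophage lysozyme, measured 54.0, 24.3 and 19.7 CPM in HS_Chol and 767, 1329.6, 214 and 242 CPM in Chol_CA (log2 4.29). Lgals3 (log2 3.75), Clec7a (3.55), Itgax (3.59), Ctss (2.88), Spp1 (2.54), Cd68 (2.57) and the chemokine receptor Ccr2 (3.06) were higher as well, and Fabp5 was not called.

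The summed level of the 20 macrophage genes was 298, 195 and 164 CPM in HS_Chol and 2499, 3478, 1088 and 815 CPM in Chol_CA. The 2 highest sums were those of Chol_CA_0 and Chol_CA_1, the libraries with a negative length trend. Restricted to the positive-trend libraries, 17 were higher, with a median of 2.30, and leaving out any 1 library gave 18 or 19. In whole liver, more cells of a type and more RNA per cell cannot be told apart, here and for the lists that follow.

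For Trem2 the sequence before the start is shown because it holds a match to the letters used here for AP-1, whose factors act in activated macrophages. TGANTCA, searched on both strands, occurred in 2217 of the 32851 windows of 250 bases (6.75%) and in 5 of 17 macrophage list genes with a window: Cd68, Itgax, Mmp12, Ms4a7 and Trem2. The percentage counts windows and the 17 are genes, so they are not like for like. Mmp12, for example, had a window with the match and another without it. The list was chosen with earlier results of these data known, so the 5 of 17 is no independent support. The Trem2 window lies at chr17:48346151-48346400 on the plus strand (GRCm38.p6, RefSeq), with the match in capitals, printed 5′ to 3′. The searched letters allow any base in the middle position, which is A in the Trem2 match. It is therefore a match to a loose form only. No factor binding was measured. In the Gpnmb window no match to these letters was found.
Trem2: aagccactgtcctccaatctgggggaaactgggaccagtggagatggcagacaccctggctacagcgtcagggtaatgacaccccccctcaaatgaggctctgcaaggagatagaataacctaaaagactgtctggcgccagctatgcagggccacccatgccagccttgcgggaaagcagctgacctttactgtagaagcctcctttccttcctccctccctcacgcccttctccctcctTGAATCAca

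Resident Kupffer cell genes were higher for 9 of 14 and lower for none (median log2 1.65), against 10.4% and 5.9% of all genes. Marco, a scavenger receptor, measured 26.7, 5.59 and 4.43 CPM in HS_Chol and 202, 373, 79.7 and 61.5 CPM in Chol_CA. The lowest Chol_CA library was above the highest HS_Chol library (log2 3.87 ± 0.83, adjusted p = 0.00299). Cd5l, a secreted macrophage protein, measured 179.5, 96.4 and 49.6 CPM in HS_Chol and 506, 703, 352 and 291 CPM in Chol_CA (log2 2.09 ± 0.44, adjusted p = 0.0029), missing the threshold in the positive-trend libraries (adjusted p = 0.0545). The complement genes C1qa, C1qb and C1qc had log2 differences of 2.04, 2.18 and 1.98. Clec4f, a lectin restricted to Kupffer cells, was not called at 94.7, 58.5 and 49.9 CPM in HS_Chol and 122, 209, 109 and 99.9 CPM in Chol_CA (log2 1.00 ± 0.35, adjusted p = 0.0559), but was by DESeq2 (0.0312) and without Chol_CA_3 (0.0429) or HS_Chol_0 (0.0371). Timd4, Cd163 and Folr2, markers of long-resident Kupffer cells, were not called either. Among positive-trend libraries 4 of the 14 were higher and 1 lower (median 1.03), and the number higher was 5 without HS_Chol_2.

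MHC class II and dendritic cell genes were higher for 8 of 11 and lower for none (median log2 2.52), against 10.4% and 5.9% of all genes. Cd74, the invariant chain that escorts class II molecules, measured 599, 256 and 136 CPM in HS_Chol and 3640.4, 5598, 1228 and 878 CPM in Chol_CA. Chol_CA_3, the lowest of its diet, stood above HS_Chol_0, the highest of the other (log2 3.10 ± 0.65, adjusted p = 0.00277). Ciita, the transactivator of the class II genes, was also higher (log2 2.17 ± 0.45, adjusted p = 0.00263), with Dexi at 33.4 CPM on the opposite strand. In the positive-trend libraries 2 of the 11 were higher (median 1.35), and Cd74 was not called (log2 1.66, adjusted p = 0.101). The number was 4 without HS_Chol_1 or HS_Chol_2. Of the dendritic cell markers tested, Flt3 was higher (log2 1.71 ± 0.52, adjusted p = 0.0274) and Xcr1, Clec9a and Zbtb46 were not called.

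Markers of lymphocytes and neutrophils were low in level. Of 16 T and NK cell genes 11 passed the filter, which makes them no measure of the whole list; 5 were higher and none lower, and none in the positive-trend libraries or without HS_Chol_1 or HS_Chol_2; without Chol_CA_1 the count was 1. Ccl5 measured 5.27, 1.21 and 1.15 CPM in HS_Chol and 49.8, 142, 6.06 and 9.09 CPM in Chol_CA (log2 4.34 ± 1.10, adjusted p = 0.00966), with Chol_CA_0 and Chol_CA_1 far above Chol_CA_2 and Chol_CA_3, and was not called in the positive-trend libraries (log2 1.55, adjusted p = 0.179). Of the 12 neutrophil genes 4 passed the filter and all 4 were higher, among them Csf3r, the G-CSF receptor, at 2.08, 3.17 and 0.492 CPM in HS_Chol and 13.2, 23.3, 8.60 and 6.60 CPM in Chol_CA (log2 2.73 ± 0.60, adjusted p = 0.00369); the 4 that passed are no measure of the 12. Their number was 2 without Chol_CA_1. Of 5 B and plasma cell genes, Cd79b alone was higher, and none without HS_Chol_1 or HS_Chol_2.

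Chemokine and inflammation genes were higher for 16 of 23 and lower for none (median log2 2.30), against 10.4% and 5.9% of all genes. Icam1, a leukocyte adhesion molecule, measured 17.6, 13.4 and 9.68 CPM in HS_Chol and 76.2, 88.8, 45.1 and 36.9 CPM in Chol_CA (log2 2.18 ± 0.30, adjusted p = 5.98e-05). Cxcl14 measured 1.44, 1.06 and 2.63 CPM in HS_Chol and 11.3, 19.7, 13.6 and 7.79 CPM in Chol_CA (log2 2.94 ± 0.42, adjusted p = 0.000112). No HS_Chol library of either gene reached a Chol_CA library. The cytokine genes Tnf (log2 3.39) and Il1b (1.88), the chemokine genes Ccl2 (2.98), Ccl6 (3.59) and Cxcl1 (2.37), and the bacterial product receptors Cd14 (3.31) and Tlr2 (2.40) were higher, whereas Cxcl9, Cxcl10 and Nfkbia were not called. Positive-trend libraries gave 10 higher members, and leaving out 1 library gave 11 to 18.

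Acute phase genes, secreted by hepatocytes in inflammation, were higher for 13 of 20 and lower for none (median log2 0.87), against 10.4% and 5.9% of all genes. Lcn2, an iron-siderophore binding protein (chr2:32384633-32388252, minus strand, GRCm38), measured 18.2, 5.59 and 1.81 CPM in HS_Chol and 498, 918, 113 and 39.2 CPM in Chol_CA. The Chol_CA libraries spanned more than an order of magnitude among themselves, with Chol_CA_0 and Chol_CA_1 highest, and all lay above HS_Chol (log2 5.52 ± 0.94, adjusted p = 0.000554). Saa1, serum amyloid A, which can share reads with Saa2, measured 96.6, 21.9 and 18.4 CPM in HS_Chol and 903, 2204, 380.3 and 254 CPM in Chol_CA (log2 4.36 ± 0.95, adjusted p = 0.0034). Orm1, an abundant plasma glycoprotein, measured 489.7, 516 and 472 CPM in HS_Chol and 1456, 2019, 1017 and 996 CPM in Chol_CA (log2 1.48 ± 0.27, adjusted p = 0.000958). Haptoglobin Hp stood at 1753 ± 444 CPM in HS_Chol and 5221 ± 2879.8 CPM in Chol_CA (SD, log2 1.57) and hemopexin Hpx at 2862 ± 857 CPM in HS_Chol and 7605 ± 2839.8 CPM in Chol_CA (log2 1.41). Positive-trend libraries gave 7 higher members of the 20. Of 26 interferon-stimulated genes 4 were higher, among them Gbp2 (log2 2.18) and Oas1a (2.07), a share near the 10.4% of all genes. In the positive-trend libraries 2 were higher, near the 7.34% there, and the number was 8 without HS_Chol_0, 6 without Chol_CA_3 and 1 without HS_Chol_1, HS_Chol_2, Chol_CA_0 or Chol_CA_1.

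Matrix genes followed in the same direction, with 17 of 35 higher and none lower (median log2 1.16), against 10.4% and 5.9% of all genes. Col1a1, the main fibrillar collagen chain (chr11:94936224-94953042, plus strand, GRCm38), measured 18.8, 14.5 and 11.2 CPM in HS_Chol and 159, 188, 49.0 and 36.9 CPM in Chol_CA. Chol_CA_0 and Chol_CA_1 were several times above Chol_CA_2 and Chol_CA_3, which were still above HS_Chol (log2 2.86 ± 0.60, adjusted p = 0.00264). In the positive-trend libraries the difference was 1.52, adjusted p = 0.00437. Col15a1, a basement membrane collagen, measured 5.59, 9.67 and 7.22 CPM in HS_Chol and 22.4, 28.8, 23.7 and 18.6 CPM in Chol_CA (log2 1.64 ± 0.22, adjusted p = 5.28e-05), and was 14.0 ± 2.50 CPM in NC. Fbn1, fibrillin, measured 3.03, 3.63 and 2.95 CPM in HS_Chol and 11.9, 11.0, 8.40 and 8.77 CPM in Chol_CA (log2 1.64 ± 0.26, adjusted p = 0.00033). Col3a1 (log2 1.98), the cross-linking enzyme Lox (3.22), vimentin Vim (2.07) and Tgfb1 (1.44) were higher. Timp1, an inhibitor of matrix proteases, measured 0.479, 0.302 and 0.328 CPM in HS_Chol and 7.42, 11.8, 1.95 and 1.30 CPM in Chol_CA (log2 3.86 ± 0.87, adjusted p = 0.00441) and was not called in the positive-trend libraries (adjusted p = 0.0903). Its means were 0.137 CPM in NC, 0.0926 in HS and 0.568 in CA, and it passed the filter through Chol_CA alone. In the positive-trend libraries 14 of the 35 were higher (median 0.70), and leaving out 1 library gave 12 to 20. Acta2, the actin of activated stellate cells, was not called.

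Cell type lists beside the matrix genes differed in behaviour. Of 12 stellate cell genes 2 were higher, among them Pdgfrb, and 1 was lower, Ecm1 (median log2 0.005). These counts stand beside 10.4% higher and 5.9% lower among all genes. None was higher without Chol_CA_1, HS_Chol_1 or HS_Chol_2, and Ecm1 was not called without Chol_CA_0 or any of the 3 HS_Chol libraries. None of 14 sinusoidal endothelium genes was called in either direction by edgeR (median log2 -0.07). Of 16 bile duct genes 11 passed the filter and 5 of these were higher; the 11 are no measure of the 16. Mmp7, a ductal protease, measured 0.479, 0.151 and 0 CPM in HS_Chol and 2.78, 4.47, 3.71 and 0.974 CPM in Chol_CA (log2 3.73 ± 0.84, adjusted p = 0.00428). It was low in HS_Chol and in the other 3 diets, passed the filter through Chol_CA alone, and was not tested in the positive-trend libraries. Epcam, a cholangiocyte adhesion protein, measured 1.76, 2.72 and 1.48 CPM in HS_Chol and 6.89, 6.99, 8.40 and 3.14 CPM in Chol_CA (log2 1.67 ± 0.44, adjusted p = 0.0115), and missed the threshold without HS_Chol_0 (0.0507) or HS_Chol_2 (0.0725). Krt19, the duct keratin, was not called at 1.12, 2.27 and 0.985 CPM in HS_Chol and 1.99, 4.01, 4.30 and 1.84 CPM in Chol_CA (log2 1.05 ± 0.66, adjusted p = 0.324). In the positive-trend libraries 1 duct gene was higher, and the number was 1 without HS_Chol_0, 2 without HS_Chol_1, Chol_CA_0, Chol_CA_1 or Chol_CA_2, and 3 without HS_Chol_2. The lists for pancreas, muscle and adipose tissue had no tested member, and the 3 tested blood genes were not called.

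**Figure D3:**
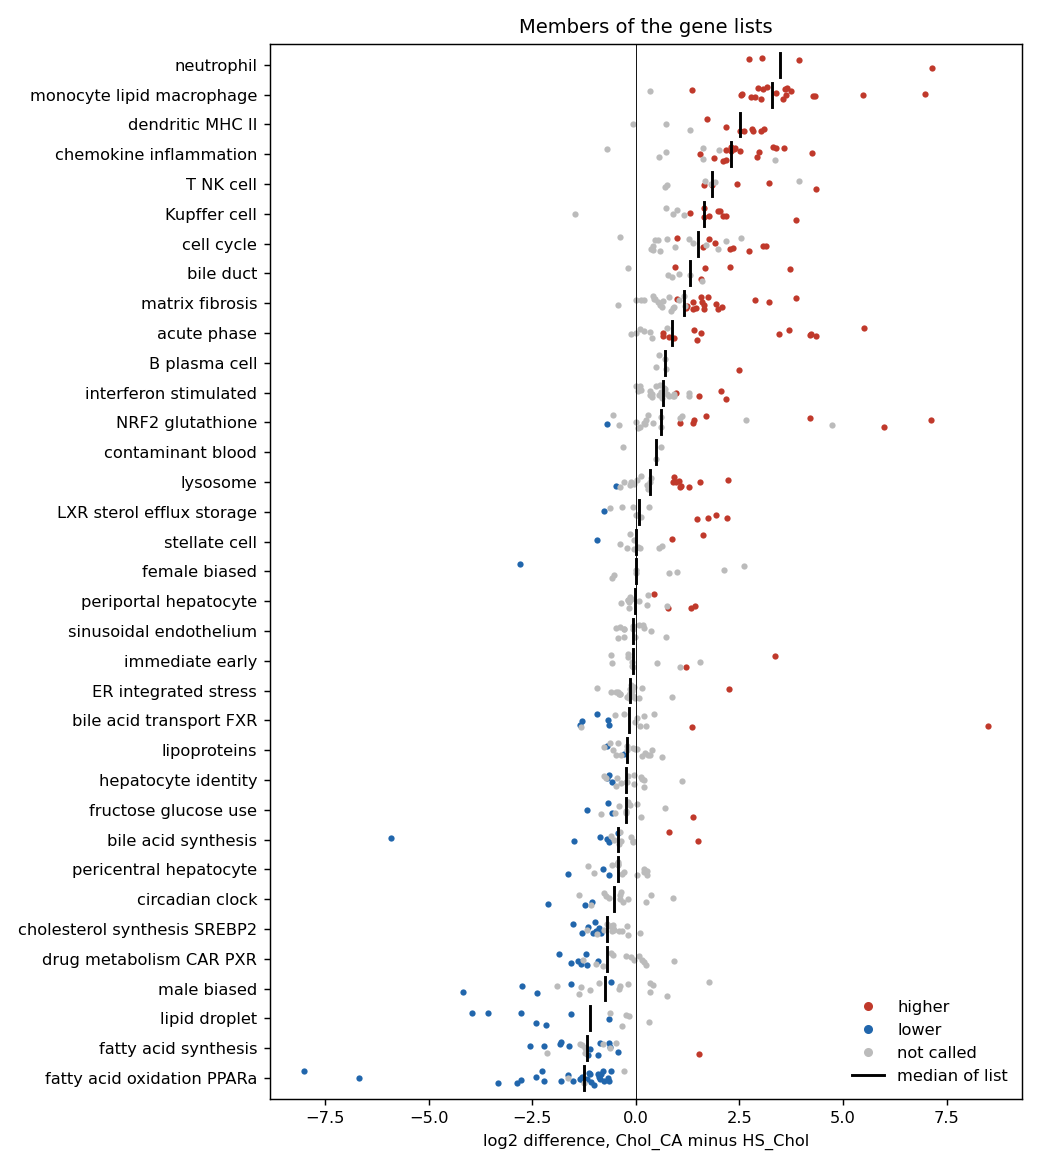
Log2 difference, Chol_CA minus HS_Chol, of each kept member of the lists with a tested member; red is called higher, blue called lower and grey not called, and the black bar is the list median. The macrophage list has its median at 3.28 and the fatty acid oxidation list at -1.25, the highest and lowest medians of lists with more than 4 members.

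**Figure D4:**
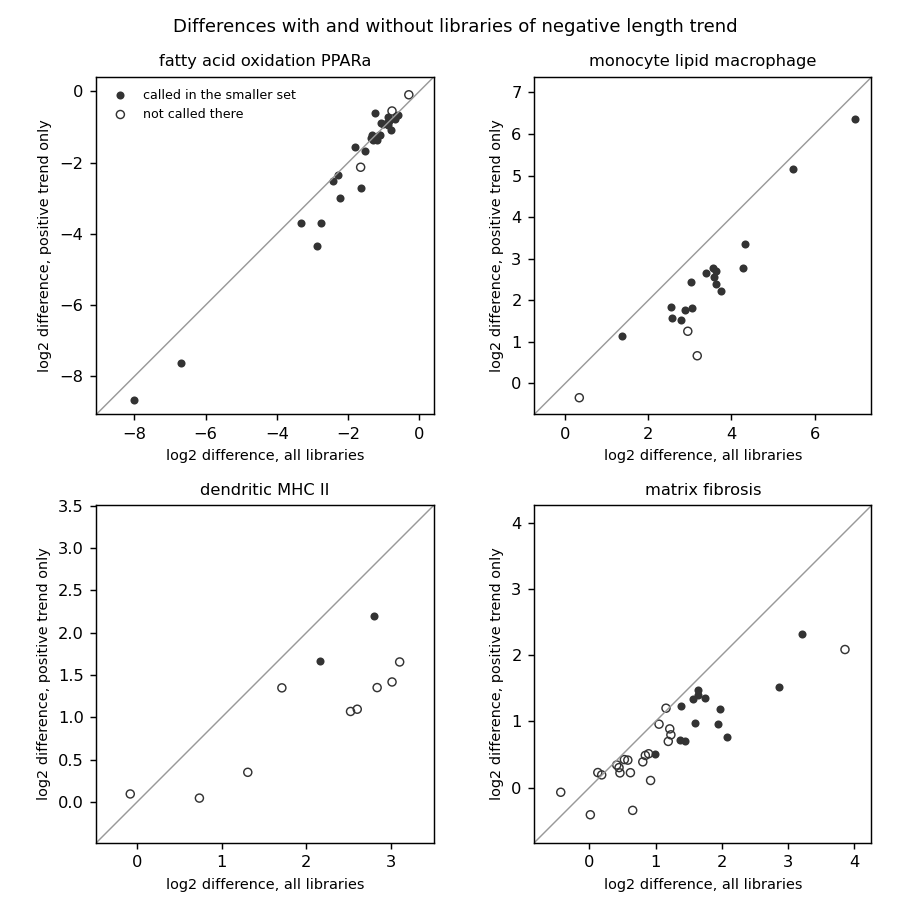
Log2 difference in all 7 libraries (x axis) against the difference in the positive-trend libraries only (y axis) for the members of 4 lists; filled points are called in the smaller set and the line marks equality. Macrophage, MHC class II and matrix genes mostly lie under the line, with medians of 2.30, 1.35 and 0.70 in place of 3.28, 2.52 and 1.16, and fatty acid oxidation genes lie near it, at -1.23 in place of -1.25.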

How the data were processed

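Strand-specific libraries of total liver RNA were read from a single end over 50 bp, per the labels' protocols. The deposited values are raw read counts per gene symbol in a single table; STAR 2.6.1c and mm10 are named in the submitters' processing notes. Which strand was counted is not given in the sources used here. Of 23 columns, 20 were matched by name to the 5 diets and 3 that fit no label were left out; HS_Chol has 3 columns for 4 labelled samples.

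Counts were fitted with edgeR 4.0.16 (R 4.3.3, limma 3.58.1): filterByExpr, TMM scaling, 1 mean per diet over all 20 libraries, robust quasi-likelihood test of Chol_CA minus HS_Chol, and Benjamini-Hochberg adjustment over 12595 genes. CPM use TMM library sizes. Each SE was derived as the absolute log2 difference divided by the square root of the quasi-likelihood F statistic. Genes were placed with GENCODE release 21 of the mouse on GRCm38 (29015 symbols by name, 1848 by an older name, 3573 not placed). A gene was set aside when an exon overlapped a gene of at least 100 CPM on the other strand, when it could not be placed, or when it lay on the mitochondrial light strand. The length trend is the slope of log2 CPM on log2 exonic length over 10348 genes with at least 20 reads on average.

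Named genes were the 8 largest rises and 8 largest falls among called genes of at least 5 CPM in the higher diet and no overlap between libraries, the 2 called members with the smallest adjusted p of each of 38 lists, and a fixed set; other list members appear as members of their list. Some list members are counted with their list but not reported singly here. A few list members outside that rule were given per library after their values were seen. Members and lists were chosen with earlier results of these data known. No library pair within a diet agreed within sampling noise. Counting intervals and floors (3 reads) cover counting error only. Alternatives were DESeq2 1.42.0, RLE scaling, other count filters, the 2 diets alone, each library left out, the positive-trend libraries, a term for the trend, other set-aside rules and a minimum change of 2-fold.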

Additional observations from a re-analysis of the deposited data

Results flagged for a closer look

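Among the 98 named genes, 5 had a Chol_CA library set apart from the other 3 by a gap that takes most of the diet's range; chance gives such a gap in about 1 in 20 groups. Cfd stood at 0.229 CPM in Chol_CA_1 and at 0 in the other 3. Cyp4a14 stood at 4.77 CPM and Acot3 at 1.59 CPM in Chol_CA_0, the highest of their diet. Glul stood at 824 CPM in Chol_CA_3, above the other Chol_CA libraries. Tff3, a trefoil peptide gene of ductal and goblet cells, stood at 7.79 CPM in Chol_CA_1 against 1.99, 2.44 and 2.49 in the others (log2 2.28 ± 0.69, adjusted p = 0.0271 by edgeR), and its call was lost without Chol_CA_1 (adjusted p = 0.116), HS_Chol_0 (0.101) or HS_Chol_1 (0.141).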

How the results depend on the processing

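No paired analysis was possible because the table's columns count from 0 and the labels from 1, so no column could be tied to a replicate number. The counts of higher and lower genes came to 1264 and 714; fitted on the 2 diets alone they were 664 and 359, with a required change beyond 2-fold 232 and 86, and leaving out each library in turn gave 643 to 1432 higher and 488 to 882 lower. Setting aside any gene with an opposite gene, whatever its level, gave 884 higher and 408 lower. Under DESeq2, RLE scaling, no filter and a stricter filter the counts stayed within 1.5 times, at 1159 to 1372 higher and 741 to 881 lower. The cause of these shifts was not tested. Of the named genes, 44 calls were lost with a required change beyond 2-fold, 14 in the fit of the 2 diets alone, 14 in the positive-trend libraries and 4 with the trend term; leaving out 1 library lost from 2 (Chol_CA_3) to 13 (HS_Chol_2) and 15 (HS_Chol_1). Uncalled genes whose sign turned ran, over the fits that leave out each library in turn, from log2 -0.81 to 0.22 for Cyp7b1 (positive without HS_Chol_2), -0.055 to 0.43 for Abcb11 (negative without Chol_CA_3), -0.0069 to 0.24 for Abcg5 (negative without Chol_CA_3), -0.15 to 0.16 for Abcg8 (positive without Chol_CA_1 at 0.16 and HS_Chol_0 at 0.086), -0.13 to 0.19 for Abca1 (negative without Chol_CA_3 at -0.13, HS_Chol_0 at -0.077 and HS_Chol_1 at -0.021) and -1.63 to 0.016 for Cyp2b10 (positive without HS_Chol_1). Abcg8 was also positive in the 2 diets alone (0.020), in the positive-trend libraries (0.22) and with the trend term (0.11). The cause was not tested. With 3 and 4 libraries of 6110484 to 8886641 reads, genes of a few reads, such as Cyp2b10, could not be compared.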

Other observations

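Several further gene groups were measured in the same comparison. Cell cycle genes were higher in Chol_CA for 9 of 24 and lower for none (median log2 1.50), against 10.4% and 5.9% of all genes. Mcm6, part of the replication helicase, measured 4.63, 5.14 and 3.61 CPM in HS_Chol and 22.8, 12.7, 11.7 and 7.90 CPM in Chol_CA (log2 1.62 ± 0.31, adjusted p = 0.00149 by edgeR). Ccnd1, cyclin D1, which opens the way into the cell cycle, measured 24.8, 30.4 and 26.4 CPM in HS_Chol and 127, 94.9, 67.8 and 80.6 CPM in Chol_CA (log2 1.77 ± 0.35, adjusted p = 0.00182), with a CA mean of 132 ± 45.5 CPM and Oraov1 at 13.1 CPM on the opposite strand. Mki67 stood at 3.04 ± 1.66 CPM in HS_Chol and 20.3 ± 10.3 CPM in Chol_CA (SD, log2 2.72). In the positive-trend libraries 2 of the group were higher, and the number was 3 without HS_Chol_1 or HS_Chol_2, and 4 without Chol_CA_0. Lysosome genes were higher for 9 of 21 and lower for 1, against 10.4% and 5.9% of all genes, and the 1 lower is near that share. Ctsb, cathepsin B, measured 817, 756 and 678 CPM in HS_Chol and 1586, 1931, 1118 and 1046 CPM in Chol_CA (log2 0.92 ± 0.17, adjusted p = 0.00104). The sterol carrier Npc2 measured 69.2, 54.7 and 49.1 CPM in HS_Chol and 148, 230.2, 98.5 and 80.0 CPM in Chol_CA (log2 1.27 ± 0.25, adjusted p = 0.00162). Npc1 and Lipa, of the same sterol route, were not called.

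Of 16 clock genes 3 were lower, beside 5.9% of all genes: Nr1d1 at 226, 155 and 241 CPM in HS_Chol and 99.4, 73.4, 91.6 and 87.9 CPM in Chol_CA (log2 -1.24 ± 0.28, adjusted p = 0.00476), Dbp (log2 -2.12 ± 0.64, adjusted p = 0.0276) and Tef (-1.05). Dbp has Sphk2 at 82.9 CPM opposite, and its call was lost without HS_Chol_0, HS_Chol_1, Chol_CA_0, Chol_CA_2 or Chol_CA_3 (adjusted p 0.0519 to 0.103). The count lower was 1 without HS_Chol_0, HS_Chol_1 or Chol_CA_0. Time of collection is not given in the labels. Of 12 immediate early genes Egr2 (3.36) and Klf6 (1.20) were higher, while Fos, Jun and Egr1 were not called. Egr2 passed the filter through Chol_CA alone, with means of 0.0346 CPM in NC, 0.153 in HS, 0.317 in HS_Chol and 0.461 in CA. The median log2 of the 12 was -0.08. Among all genes 10.4% were higher and 5.9% lower. Of 21 stress genes of the endoplasmic reticulum and the integrated stress response only Atf3 was higher (log2 2.25 ± 0.60, adjusted p = 0.0124), and none without HS_Chol_1 or HS_Chol_2. The 1 higher gene of 21 is under the 10.4% of all genes. H2-M2, a class I-like gene, measured 0.479, 0 and 0 CPM in HS_Chol and 17.4, 18.7, 7.13 and 5.20 CPM in Chol_CA; with 3 reads in HS_Chol the ratio was 73.4-fold (95% counting interval 24.9 to 357). All 3 reads were in HS_Chol_0, and the fitted log2 difference of 6.11 became 9.53 without that library, a value that is no bound because the remaining HS_Chol libraries held no read. H2-M2 also passed the filter through Chol_CA alone, with means of 0.103 CPM in NC, 0.0910 in HS and 0.0294 in CA.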
